A study of Homo sapiens with 12 samples.

Results

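TCam-2 was set against 2102 EP after both human testicular germ cell tumour lines had spent 24 h with the BRD9 bromodomain inhibitor I-BRD9. The comparison rests on 6 of the 12 libraries of the series, those titled as I-BRD9 libraries, with 3 per line. The other 6 libraries, 3 per line, are DMSO controls, and they served to ask which differences between the lines were there without the compound. TCam-2 is labelled a seminoma line and 2102 EP an embryonal carcinoma line, and both are wild type in the labels. The 4 groups were thus 2102 EP with I-BRD9 at 15 µM, 2102 EP with DMSO, TCam-2 with I-BRD9 at 15 µM and TCam-2 with DMSO, all for 24 h. Medium differed with the line: 2102 EP grew in DMEM and TCam-2 in RPMI, each with serum, antibiotics and glutamine, so line and medium cannot be told apart. Each cell type is represented by a single line. The labels call the replicates biological without saying how the cultures were kept apart. The p-values rest on the spread between the 3 libraries within each group, not on a spread between lines of a cell type.

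BRD9 is a subunit of the non-canonical BAF complex, a SWI/SNF chromatin remodeller that moves nucleosomes at active promoters and enhancers. Its bromodomain binds acetylated lysines, and I-BRD9 occupies that pocket. Embryonal carcinoma cells resemble pluripotent cells of the early embryo and depend on the SOX2 branch of the POU5F1 network, whereas seminoma cells resemble primordial germ cells, in which SOX17, TFAP2C and PRDM1 take the leading role.

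The libraries held 7290335 to 10053366 estimated counts, and 15614 of 63241 genes passed the filter on low counts. The first principal component carried 67.4% of the variance and separated the lines, and the second carried 13.2% and separated I-BRD9 from DMSO. Correlations between replicates lay between 0.971 and 0.981. The labelled cell types were checked on markers, and not all of them went with the labels. At an adjusted p under 0.05 under I-BRD9, 9 of 16 tested seminoma and germ cell genes were higher in TCam-2 and 5 in 2102 EP. Of 14 embryonal carcinoma markers, 10 were higher in 2102 EP and 4 in TCam-2. Under I-BRD9 SOX17 was listed at 0 in every 2102 EP library and at 44.1, 48.9 and 43.0 CPM in TCam-2, and SOX2 stood at 261, 257 and 251 CPM in 2102 EP against 3.96, 7.33 and 6.96 CPM in TCam-2. CPM here means a gene's counts as a share of its library's total, scaled by TMM in the usual unit. Of the seminoma markers, NANOS3 did not pass the filter, and of the embryonal carcinoma markers TNFRSF8, the CD30 receptor, was near the floor, at 0.637 ± 0.653 CPM (SD) in 2102 EP. NANOS3 had 27 counts over the TCam-2 group with DMSO and 2 with I-BRD9, against 4 and 0 in 2102 EP. Markers of other cell types were summed. The 10 blood markers summed to 4.69 to 6.03 CPM in the 2102 EP libraries and 3.18 to 4.15 CPM in the TCam-2 libraries under I-BRD9, with 3 to 6 and 5 of them at 0, CD3E and HBB in every library. The 12 testis somatic markers summed to 27.3 to 37.2 and 32.8 to 38.6 CPM, with 3 and 3 to 5 of them at 0, HSD3B2 in every library. The 10 fibroblast markers summed to 135 to 161 CPM in 2102 EP and 90.2 to 137 CPM in TCam-2, with 4 to 5 and 2 to 4 of them at 0, and with DMSO to 232 to 260.3 and 192 to 198 CPM. DCN and FAP were at 0 in every 2102 EP library. Their part in the results below was not tested. THY1, a surface glycoprotein that is also found on stem cells, made up most of that sum in 2102 EP, at 119 ± 11.4 CPM (SD) under I-BRD9, and COL1A2, a fibrillar collagen chain, most of it in TCam-2, at 93.0 ± 23.6 CPM.

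Under I-BRD9 the lines differed at 9709 of the 15614 genes (62.2%) at an adjusted p under 0.05 in edgeR's quasi-likelihood test, which is what "called" means throughout. TCam-2 was higher at 4855 of them (31.1% of the genes tested) and 2102 EP at 4854 (31.1%). The difference was called and at least 2-fold at 5058 genes (32.4%), of which 2594 were higher in TCam-2 (16.6%) and 2464 in 2102 EP (15.8%). With DMSO 9767 genes (62.6%) were called, 4953 higher in TCam-2 (31.7%) and 4814 higher in 2102 EP (30.8%), and 5221 (33.4%) were called and at least 2-fold. The median absolute log2 difference between the lines was 0.68 with DMSO and 0.67 with I-BRD9. Libraries of the lines did not overlap at 66.3% of genes under I-BRD9 and at 67.6% with DMSO. These are bulk samples, in which fewer cells of a kind and less RNA per cell cannot be told apart.

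Most of these differences persisted. A difference was said to persist when it was called, at least 2-fold and of the same sign under both treatments, which held for 3738 genes (23.9% of those tested), or 71.6% of those that were 2-fold with DMSO and 73.9% of those that were 2-fold with I-BRD9. Of these, 3253 (87.0%) showed no called change of the line difference, where the change is the log2 line difference under I-BRD9 minus that with DMSO, tested as an interaction. The change was called at 2043 of all genes (13.1%), 921 of them toward TCam-2 (5.9%) and 1122 toward 2102 EP (7.19%). Among the persisting differences 205 widened (1.31% of the genes tested), 110 of them higher in TCam-2 and 95 in 2102 EP, and 280 narrowed (1.79%), 181 and 99 in that order. A difference was said to vanish when it was 2-fold with DMSO, was not called with I-BRD9 and its change was called. That applied to 253 genes (1.62% of those tested), 157 that had been higher in TCam-2 and 96 that had been higher in 2102 EP. Differences appeared, by the mirror rule, at 165 genes (1.06%), 72 higher in TCam-2 and 93 higher in 2102 EP. At 33 genes (0.211%) the difference reversed, being 2-fold under both treatments with opposite signs. Of these, 27 became higher in 2102 EP and 6 in TCam-2. The remaining 2319 genes (14.9%) with a 2-fold difference under either treatment fell in none of these classes, among them 1238 that were called under both treatments with a single sign and passed 2-fold under just 1 of them.

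**Figure D1:**
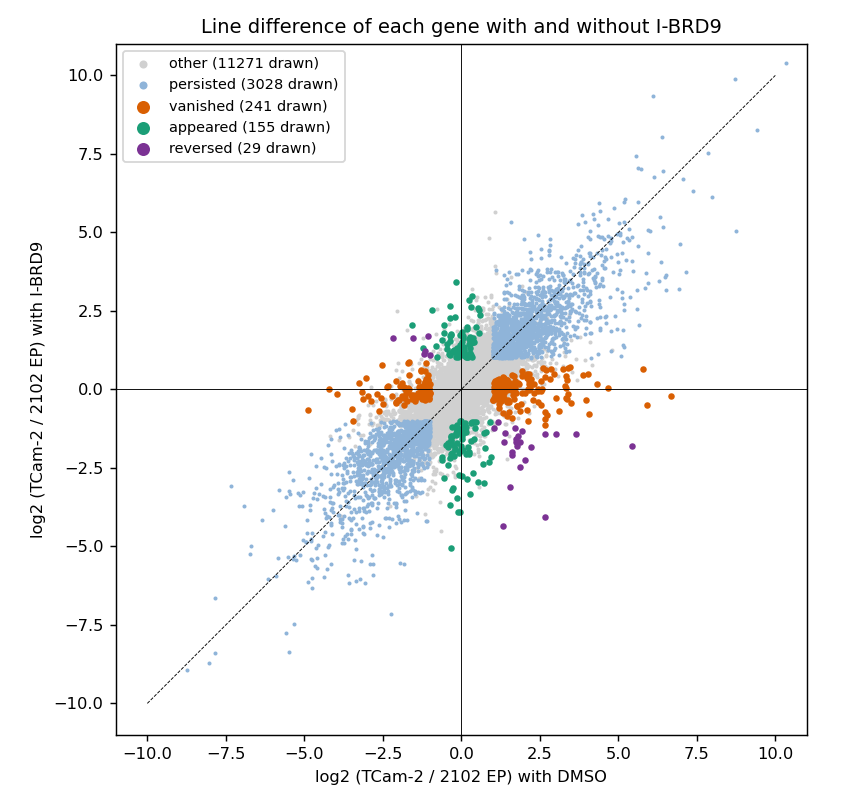
Log2 ratio of TCam-2 to 2102 EP for each gene with DMSO (horizontal) and with I-BRD9 (vertical), coloured by class; 14724 genes are drawn, and genes with 3 counts or fewer over a group, which have no fold of their own, and 10 sex-linked genes not reported here are left out. Most persisting genes lie near the dashed diagonal, vanished genes lie near the horizontal axis, appeared genes near the vertical axis and reversed genes in the upper left and lower right.

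Each class was described by which line had moved. Of the 157 vanished genes that had been higher in TCam-2, 92 fell in TCam-2 and 89 rose in 2102 EP, and both lines had a called response at 41. Of the 96 that had been higher in 2102 EP, 69 fell in 2102 EP and 44 rose in TCam-2. Of the 72 differences that appeared with TCam-2 higher, 47 involved a fall in 2102 EP and 30 a rise in TCam-2. Of the 93 that appeared with 2102 EP higher, 49 rose in 2102 EP and 52 fell in TCam-2. Of the 27 that reversed toward 2102 EP, 22 fell in TCam-2 and 14 rose in 2102 EP. These responses share libraries with the line differences and are given to describe them. The rules of the classes favour the directions named, so the shares over all genes are no test of them. Over all genes 36.8% had a called response in 2102 EP (18.2% rose and 18.6% fell) and 31.8% in TCam-2 (15.3% rose and 16.5% fell).

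**Figure D2:**
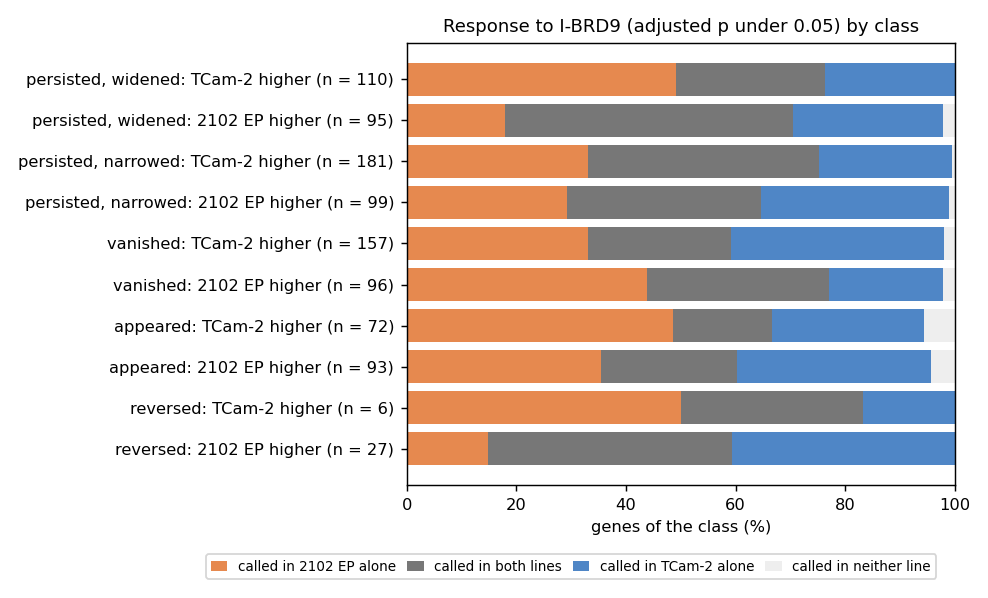
Share of the genes in each class (horizontal, %) whose own response to I-BRD9 was called in 2102 EP alone, in both lines, in TCam-2 alone or in neither. Among the vanished differences that had favoured TCam-2, 61 of 157 genes responded in TCam-2 alone, 52 in 2102 EP alone and 41 in both.

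BRD9 itself was slightly higher in TCam-2. It stood at 105, 89.7 and 83.1 CPM in 2102 EP and 115, 129 and 125 CPM in TCam-2 under I-BRD9, a log2 difference of 0.41 ± 0.09 (SE, adjusted p = 0.000661), and the change from DMSO was 0.06 ± 0.13 (adjusted p = 0.844). BRD7, the paralogous bromodomain subunit of the PBAF complex, showed a difference of 0.10 ± 0.07 that was not called (adjusted p = 0.229), with reads shared with other genes, seen as an estimate that is not whole, in 12 libraries. Of 29 tested BAF subunits and relatives, 12 were higher in TCam-2 and 9 in 2102 EP under I-BRD9, or 41.4% and 31.0%, beside 31.1% each way over all genes. The change was called toward TCam-2 at 5 (17.2%) and toward 2102 EP at 2 (6.9%), beside 5.9% and 7.19% over all genes. The same shares over all genes are the background for every list below. SMARCA2, the ATPase that alternates with SMARCA4, moved apart in the lines. Its levels were 39.1, 37.1 and 39.4 CPM in 2102 EP and 47.7, 53.2 and 47.9 CPM in TCam-2 with DMSO, and 24.0, 19.1 and 17.2 and 82.7, 80.2 and 71.7 CPM under I-BRD9. It fell in 2102 EP and rose in TCam-2, and its line difference was 1.97 ± 0.11 under I-BRD9 (adjusted p = 1.12e-12), after 0.36 ± 0.11 with DMSO.

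TFAP2C, PRDM1, SOX17, KIT and PDPN, of the seminoma and germ cell list, were higher in TCam-2 with I-BRD9 as they were with DMSO. Other members went the opposite way, with 5 of the 16 tested genes higher in 2102 EP, as counted below. TFAP2C, an AP-2 factor that primordial germ cells require, stood at 1119, 933 and 931 CPM in TCam-2 and 115, 108 and 99.8 CPM in 2102 EP under I-BRD9. The groups were far apart, with a log2 difference of 3.21 ± 0.22 (adjusted p = 6.85e-07) and a change of 0.15 ± 0.29 that was not called (adjusted p = 0.804). PRDM1, the repressor that suppresses somatic fates in germ cells, had fallen in both lines, to 6.2 ± 0.654 CPM (SD) in TCam-2 from 32.8 ± 0.452 and to 0.942 ± 0.605 CPM in 2102 EP from 3.69 ± 1.73. Its line difference was 2.65 ± 0.35 (adjusted p = 1.56e-06), with some reads shared with other genes in 10 libraries. SOX17, the SOX factor of the primordial germ cell, was at most at 2 counts over a 2102 EP group in either treatment. In TCam-2 it fell from 193 ± 6.66 to 45.3 ± 3.12 CPM and was still at least 396-fold higher than in 2102 EP under I-BRD9, taking 3 counts over the group as the floor. KIT, the receptor of stem cell factor, rose in TCam-2, from 26.5 ± 0.366 to 49.4 ± 3.46 CPM (adjusted p = 0.000143), against 1.71 ± 0.688 CPM in 2102 EP. PDPN, a membrane mucin used to stain seminoma, kept a difference of 1.48 ± 0.09 against 1.56 ± 0.09 with DMSO. Of 16 tested genes on the seminoma and germ cell list, 9 were higher in TCam-2 and 5 in 2102 EP under I-BRD9, against 10 and 5 with DMSO. The shares under I-BRD9 were 56.2% and 31.2%, beside 31.1% each way over all genes. ALPG, described below, was among those higher in 2102 EP under both treatments. The other 7 of the 23 listed genes did not pass the filter, DAZL and DDX4 among them. The median log2 difference of the list was 0.88 under I-BRD9 (0.62 with genes at 3 counts or fewer set to their bound) and 2.80 with DMSO, beside 0.00 and 0.02 over all genes tested. The median of the changes of the single genes was 0.06, so the list as a whole did not move by that much. The change was called toward TCam-2 at 2 of the 16 genes and toward 2102 EP at 4, and was not called at 10.

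Of 14 embryonal carcinoma markers, 10 were higher in 2102 EP and 4 in TCam-2 under I-BRD9, against 9 and 4 with DMSO. KRT18, described below with the keratins, is on this list and was among those higher in TCam-2 under both treatments, against the label. Among the markers and pluripotency genes described next, the margin of 2102 EP widened at 5. SOX2, the partner of POU5F1 in pluripotent cells, widened from -4.78 ± 0.13 to -5.42 ± 0.14 (change -0.64 ± 0.19, adjusted p = 0.0271). That change was not called when replicate 1 or 2 of 2102 EP with DMSO, replicate 3 of TCam-2 with DMSO or replicate 1 of TCam-2 with I-BRD9 was left out, with values from -0.63 to -0.40. UTF1, a chromatin protein of undifferentiated cells, had fallen in both lines, and the fall was steeper in TCam-2. It stood at 13.4, 13.4 and 10.6 CPM in 2102 EP and 0.989, 0.721 and 0.348 CPM in TCam-2, and its difference went from -2.20 ± 0.12 to -4.12 ± 0.25 (change adjusted p = 0.000153). ZSCAN10, a zinc finger factor of embryonic stem cells, widened from -2.31 ± 0.10 to -4.39 ± 0.16. OTX2, a homeobox factor of the primed state and of anterior neural tissue, was at 20.0 ± 1.62 CPM in 2102 EP, where its response was not called, and at 1.13 ± 0.412 CPM in TCam-2, where it had been 7.64 ± 0.778 CPM with DMSO. LIN28A, which blocks let-7 maturation, widened from -2.10 ± 0.08 to -2.99 ± 0.08. DNMT3B, a de novo DNA methyltransferase, moved the opposite way. It fell from 521 ± 13.7 to 149 ± 16.4 CPM in 2102 EP and from 87.4 ± 4.58 to 58.5 ± 7.21 CPM in TCam-2, so its difference narrowed from -2.57 ± 0.09 to -1.34 ± 0.09 (change adjusted p = 5.3e-07). USP44, a deubiquitinase of undifferentiated cells, narrowed from -3.19 ± 0.16 to -1.57 ± 0.17. GDF3, a NODAL-related ligand, fell in both lines to 22.2 ± 7.10 CPM in 2102 EP and to 2 counts over the 3 TCam-2 libraries, a ratio of 292 with a 95% counting interval of 80.4 to 2416.

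**Figure D3:**
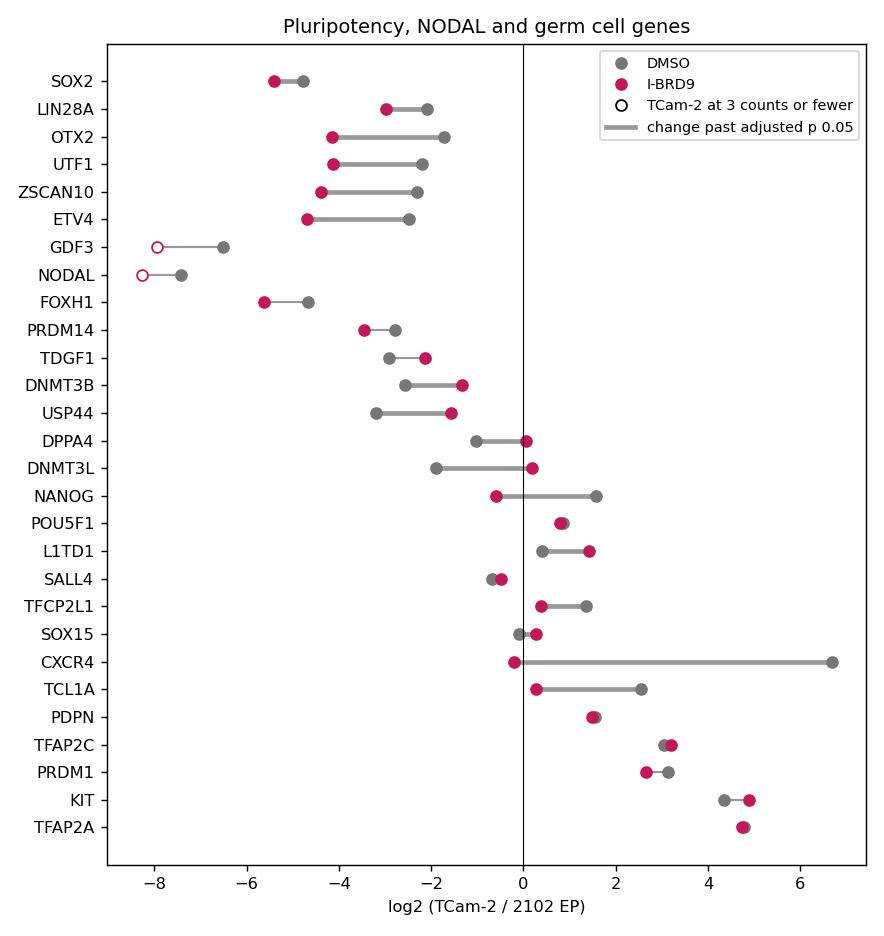
Log2 ratio of TCam-2 to 2102 EP (horizontal) for pluripotency, NODAL and germ cell genes (rows) with DMSO in grey and with I-BRD9 in red; thick lines mark a called change and open points a TCam-2 group at 3 counts or fewer, whose value depends on the fit. TFAP2C, KIT and POU5F1 have points close together, whereas CXCR4 moves from 6.69 to -0.21.

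The genes that the lines share gave a mixed picture. POU5F1 was higher in TCam-2 by 0.79 ± 0.08 under I-BRD9 and by 0.85 ± 0.08 with DMSO, although it fell in both lines, to 186 ± 16.5 CPM in 2102 EP and 323 ± 12.8 CPM in TCam-2. Its reads were shared with other genes in 12 libraries, and it has processed pseudogenes. NANOG, which holds cells in the undifferentiated state, changed sides. With DMSO it read 166, 198 and 162 CPM in 2102 EP and 494, 527 and 553 CPM in TCam-2. With I-BRD9 it read 20.9, 18.1 and 19 and 12.6, 9.73 and 16.1 CPM. TCam-2 was above 2102 EP in every DMSO library and below it in every I-BRD9 library, and the log2 difference went from 1.58 ± 0.11 to -0.59 ± 0.14 (adjusted p = 0.00114), a change of -2.17 ± 0.18 (adjusted p = 2.04e-08). Some of its reads were shared in 8 libraries. L1TD1, an RNA-binding protein of pluripotent cells, stood at 485 ± 29.9 CPM in 2102 EP and 1293 ± 77.8 CPM in TCam-2, and its difference grew from 0.40 ± 0.08 to 1.41 ± 0.08. SALL4 remained higher in 2102 EP, with a difference of -0.48 ± 0.08, and its change was not called (adjusted p = 0.259). Of 29 tested pluripotency genes, 6 were higher in TCam-2 and 20 in 2102 EP under I-BRD9, against 5 and 22 with DMSO, and the median log2 difference was -1.34 against -1.87. The median of the changes of the single genes was 0.08, so this list as a whole did not move by as much as its median. The change was called toward TCam-2 at 9 and toward 2102 EP at 8. ESRRB did not pass the filter.

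NODAL signalling maintains pluripotency through SMAD factors and induces its own inhibitors LEFTY1 and LEFTY2. NODAL, TDGF1 and FOXH1 remained higher in 2102 EP, although 10 of the 17 tested genes of the list fell in that line and 0 rose. The share that fell was 58.8%, beside 18.6% over all genes. In TCam-2 4 fell and 4 rose (23.5% each way, beside 16.5% and 15.3% over all genes). LEFTY2 went from 243 ± 23.0 CPM with DMSO to 10.1 ± 2.15 CPM with I-BRD9 in 2102 EP. It had 0 counts over the TCam-2 libraries with DMSO and 1 with I-BRD9. NODAL read 38.7, 38.2 and 39.9 CPM in 2102 EP and reached 3 counts over the 3 TCam-2 libraries, a ratio of 351 (95% counting interval 119.8 to 1705). TDGF1, its co-receptor, was at 14 ± 2.92 CPM in 2102 EP and 3.18 ± 0.500 CPM in TCam-2. FOXH1, the nuclear partner of SMAD2, was at 20.8 ± 4.33 and 0.415 ± 0.163 CPM, with a log2 difference of -5.62 ± 0.30. ACVR2B, a type II receptor, read 56.5, 55.4 and 56.2 CPM in 2102 EP and 61.4, 59.6 and 57.1 CPM in TCam-2 with DMSO, close but without overlap and not called (adjusted p = 0.511). Under I-BRD9 it read 41.2, 32.1 and 34.7 and 96.0, 86.9 and 74.7 CPM, farther apart (difference 1.26 ± 0.11, adjusted p = 6.52e-10). SKIL, a SMAD co-repressor, was -0.42 ± 0.11 with DMSO and 0.84 ± 0.11 with I-BRD9. Of 17 tested genes, 4 were higher in TCam-2 and 10 in 2102 EP, against 1 and 11 with DMSO, and every one of the 4 called changes went toward TCam-2.

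FGF receptors signal through ERK, which induces the ETS factors ETV4 and ETV5 and the SPRY inhibitors. ETV5 was among the differences that appeared. With DMSO it read 26.7, 26.5 and 22.8 CPM in 2102 EP and 28.0, 30.5 and 31.3 CPM in TCam-2, a difference that was not called (adjusted p = 0.22). Under I-BRD9 it read 7.09, 7.81 and 5.24 CPM in 2102 EP and 2.37, 1.68 and 0.928 CPM in TCam-2, a difference of -1.98 ± 0.25 (adjusted p = 3.69e-07) after 0.24 ± 0.17. ETV4 widened from -2.48 ± 0.12 to -4.70 ± 0.20, with 31.1 ± 1.27 CPM in 2102 EP and 1.17 ± 0.688 CPM in TCam-2. SPRY4 widened from -1.58 ± 0.17 to -2.76 ± 0.26, a change that was not called without replicate 3 of TCam-2 with I-BRD9, at -1.07, or in limma voom, at -1.13. SPRY4 fell in both lines, and further in TCam-2. FGFR2, a receptor, went the other way. It fell in 2102 EP and its response in TCam-2 was not called, so that 6.68, 8.31 and 7.14 CPM in 2102 EP stood against 19.8, 15.9 and 23.7 CPM in TCam-2 (difference 1.41 ± 0.20, adjusted p = 3.03e-06), where the DMSO libraries had overlapped. FGFR1, FGFR3 and FGFR4 were higher in 2102 EP with DMSO, with differences of -0.75 ± 0.08, -0.84 ± 0.09 and -0.90 ± 0.13, and were not called with I-BRD9. Of 17 tested genes of the list, 2 were higher in TCam-2 and 10 in 2102 EP, and the change was called toward TCam-2 at 4 and toward 2102 EP at 5.

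The receptor tyrosine kinases as a list had 13 of 28 tested members higher in TCam-2 and 9 in 2102 EP under I-BRD9, against 10 and 11 with DMSO. The median moved from -0.25 to 0.43. EGFR kept its lead in TCam-2, at 54.4 ± 2.51 CPM against 4.85 ± 0.728 CPM. TYRO3, of the TAM family, widened from 1.66 ± 0.10 to 2.72 ± 0.11 through a fall in 2102 EP. MERTK, of the same family, shrank from 3.66 ± 0.20 to 0.97 ± 0.19, from 39.2 ± 0.999 to 11.9 ± 0.408 CPM in TCam-2.

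A further set of genes was counted in a single line whatever the treatment. They had at most 3 counts over each group of one line and at least 10 CPM in both groups of the other. There were 21 such genes silent in TCam-2, of which 17 are protein coding, and 16 silent in 2102 EP, of which 13 are protein coding. TMCO1, a calcium channel of the endoplasmic reticulum, was listed at 0 in all 6 TCam-2 libraries and read 155, 154 and 133 CPM in 2102 EP under I-BRD9, at least 1326-fold higher. MYSM1, a histone H2A deubiquitinase, was also at 0 in all 6 TCam-2 libraries and at 29.3 ± 2.52 CPM in 2102 EP, at least 264-fold higher. Of the genes silent in TCam-2, 3 lie near each other on chromosome 22 of GRCh38. CECR2, a bromodomain protein of ISWI remodellers (17359949 to 17558149, plus strand), was at 33.0 ± 1.30 CPM in 2102 EP under I-BRD9 and 0 in TCam-2. IL17RA, the interleukin 17 receptor (17084954 to 17115694), was at 18.1 ± 5.42 CPM, with 1 count over the 3 TCam-2 libraries. ADA2, a secreted adenosine deaminase (17178790 to 17258235), was at 13.6 ± 1.24 CPM, with 3 counts over them. ZFP42, also called REX1, and BRDT, the testis bromodomain protein, were 0 in TCam-2 under I-BRD9 and read 15.2 ± 4.12 and 19.7 ± 1.91 CPM in 2102 EP. In the other direction PRAME, a cancer testis antigen that is used to stain seminoma, was 0 in 2102 EP under I-BRD9 and read 89.1, 103 and 126 CPM in TCam-2, at least 919-fold higher. VGLL1, a TEAD cofactor of trophoblast, was 0 in all 6 libraries of 2102 EP and at 12.0 ± 1.32 CPM in TCam-2. LCLAT1, a lysocardiolipin acyltransferase, and CAT, the catalase, were at 14.6 ± 1.89 and 17.1 ± 3.39 CPM in TCam-2, with 0 and 3 counts over the 2102 EP group. IGF1, the growth factor, was at 208 ± 15.4 CPM in TCam-2, down from 876 ± 32.3, with 3 counts over 2102 EP under I-BRD9. With 4 counts over 2102 EP with DMSO it falls just outside this set. The kit reads 3′ ends, and a gene listed at 0 had no reads assigned to it.

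Promoters of 4 genes are shown as examples: CECR2 and ZFP42, silent in TCam-2, CXCR4, whose difference vanished, and MSX1, whose difference reversed. Each run holds the 250 bases before the RefSeq start on GRCh38.p14, 5′ to 3′ on the gene's strand, and CG dinucleotides are in capitals.
CECR2, chr22:17359699-17359948, plus: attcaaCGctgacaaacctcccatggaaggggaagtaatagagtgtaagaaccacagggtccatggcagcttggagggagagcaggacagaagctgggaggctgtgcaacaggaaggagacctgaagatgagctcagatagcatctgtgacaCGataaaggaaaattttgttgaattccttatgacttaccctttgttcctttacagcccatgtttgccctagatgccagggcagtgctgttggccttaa
ZFP42, chr4:187995521-187995770, plus: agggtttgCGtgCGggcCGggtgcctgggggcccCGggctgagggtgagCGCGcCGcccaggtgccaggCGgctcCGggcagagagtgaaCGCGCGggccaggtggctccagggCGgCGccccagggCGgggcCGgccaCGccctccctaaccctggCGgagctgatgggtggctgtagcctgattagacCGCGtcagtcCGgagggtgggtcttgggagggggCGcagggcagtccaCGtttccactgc
CXCR4, chr2:136118150-136118399, minus: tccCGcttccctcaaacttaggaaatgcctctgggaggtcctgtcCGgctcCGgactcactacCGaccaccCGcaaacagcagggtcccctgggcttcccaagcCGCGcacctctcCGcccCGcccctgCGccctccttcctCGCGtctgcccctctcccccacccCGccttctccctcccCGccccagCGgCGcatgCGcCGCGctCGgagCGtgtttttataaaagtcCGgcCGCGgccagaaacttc
MSX1, chr4:4859415-4859664, plus: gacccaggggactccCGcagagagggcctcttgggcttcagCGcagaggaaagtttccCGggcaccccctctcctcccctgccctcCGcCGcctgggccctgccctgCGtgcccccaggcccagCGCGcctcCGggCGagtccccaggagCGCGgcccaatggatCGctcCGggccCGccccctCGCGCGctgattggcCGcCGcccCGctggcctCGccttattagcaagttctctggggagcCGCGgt
They hold 2, 23, 24 and 24 CG dinucleotides in that order, and 84.6%, 25.4%, 23.3% and 23.3% of the 27305 promoters in the table hold at least as many. Of the genes tested, 11249 matched a promoter by symbol, with a median of 21 CG (quartiles 14 and 28). The vanished genes had medians of 20 (those that had been higher in TCam-2, 116 matched) and 18 (higher in 2102 EP, 73 matched). The appeared genes had 20 and 17.5, and the persisting genes with no called change 22 and 18. The genes silent in a line had medians of 13 in both directions, with 13 of 21 and 11 of 16 matched. The count is a description of these windows.

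Among the differences that vanished were those of several secreted and surface proteins of TCam-2. CXCR4, the chemokine receptor that guides migrating germ cells, read 0.686, 1.30 and 1.79 CPM in 2102 EP and 131, 126 and 131 CPM in TCam-2 with DMSO. Under I-BRD9 it read 4.09, 3.61 and 5.80 and 3.56, 3.84 and 4.29 CPM. The groups lay far apart with DMSO and overlapped with I-BRD9, and the difference of 6.69 ± 0.19 became -0.21 ± 0.21 (adjusted p = 0.391). The change was -6.90 ± 0.30 (adjusted p = 2.09e-13). GFRA1, the GDNF co-receptor of spermatogonial stem cells, fell in TCam-2 from 21.7, 24.4 and 19.6 CPM to 0.297, 0 and 0.696 CPM, and 2102 EP had 5 counts over its 3 I-BRD9 libraries and 1 over its DMSO libraries. Its change was not called without replicate 3 of 2102 EP with I-BRD9, at -6.40, a fitted value that depends on the few counts. ANGPTL4, a lipoprotein lipase inhibitor, fell in TCam-2 from 98.2 ± 7.02 to 3.86 ± 0.922 CPM and rose in 2102 EP from 1.61 ± 1.24 to 5.50 ± 0.458 CPM. Its I-BRD9 difference of -0.49 ± 0.27 was called, at -0.50, without replicate 2 or 3 of 2102 EP with DMSO and with no filter on low counts, and there it would not count as vanished. IGFBP3 and IGFBP5, which bind insulin-like growth factors, differed by 3.38 ± 0.26 and 3.41 ± 0.34 in DMSO, and by 0.30 ± 0.24 and -0.15 ± 0.33 once I-BRD9 was given. TCL1A, an AKT coactivator of germ cell tumours, went from 2.54 ± 0.27 to 0.27 ± 0.27, and its I-BRD9 libraries overlapped between 3.00 and 4.32 CPM.

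In the other direction the vanished differences included those of DPPA4 and DNMT3L. DPPA4, a chromatin protein of pluripotent cells, read 334, 326 and 343 CPM in 2102 EP and 161, 166 and 168 CPM in TCam-2 with DMSO, and 76.5, 71.9 and 62.1 and 76.4, 72.8 and 68.1 CPM with I-BRD9. It fell in both lines and further in 2102 EP, which brought the groups together (difference 0.05 ± 0.08, adjusted p = 0.643, and change 1.07 ± 0.12, adjusted p = 8.45e-07). DPPA4 passed the 2-fold limit with DMSO by little, at -1.02 ± 0.08. DNMT3L, the catalytically inactive cofactor of the de novo methyltransferases, read 3.68, 3.71 and 3.68 CPM in 2102 EP and 5.93, 3.84 and 2.67 CPM in TCam-2 after a difference of -1.89 ± 0.17 with DMSO (change 2.08 ± 0.30). HEY2, a Notch target, fell in 2102 EP and rose in TCam-2, from 10.5 ± 1.30 and 0.937 ± 0.701 CPM to 4.34 ± 0.866 and 2.81 ± 0.617 CPM. TRDN, the triadin of muscle, fell from 25.2 ± 0.415 to 2.52 ± 0.854 CPM in 2102 EP. Its I-BRD9 difference of -0.65 ± 0.31 was called without replicate 1 or 3 of 2102 EP with I-BRD9 or replicate 3 of TCam-2 with I-BRD9, at -0.79 to -0.88. CRMP1, a cytoskeletal protein of neurons, went from -2.68 ± 0.34 to -0.15 ± 0.32.

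**Figure D4:**
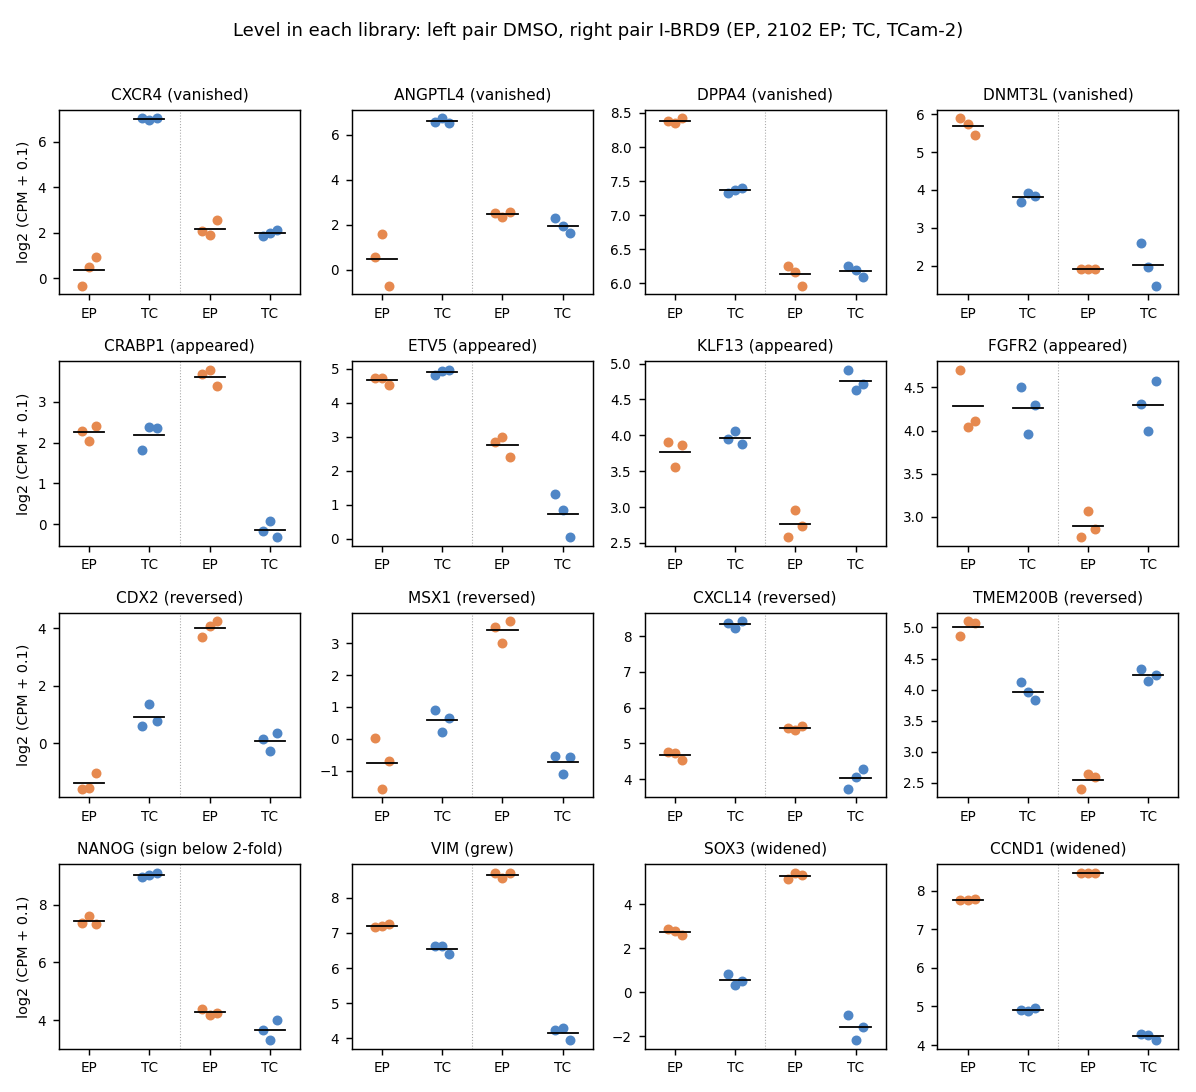
Level of 16 genes in each library (vertical, log2 of CPM + 0.1; each panel has its own scale) for 2102 EP in orange and TCam-2 in blue, DMSO on the left of each panel and I-BRD9 on the right; bars are means of 3 libraries on the log scale. CXCR4 libraries meet under I-BRD9, CRABP1 libraries part, and CDX2 libraries change order.

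The differences that appeared included CRABP1, TNFSF9 and KLF13. CRABP1, a retinoic acid binding protein, read 4.80, 4.01 and 5.24 CPM in 2102 EP and 3.42, 5.09 and 5.02 CPM in TCam-2 with DMSO. Under I-BRD9 it read 12.7, 13.7 and 10.4 and 0.791, 0.961 and 0.696 CPM. It rose in the first line and fell in the second, and the resulting difference was -3.89 ± 0.29 (adjusted p = 6.26e-11, change -3.84 ± 0.38). TNFSF9, the ligand of 4-1BB, likewise rose in 2102 EP to 17.3 ± 1.57 CPM and fell in TCam-2 to 3.78 ± 0.476 CPM. EGLN3, a prolyl hydroxylase of the hypoxia response, did the same, to 12.5 ± 0.664 and 3.05 ± 0.739 CPM. IL6R, the interleukin 6 receptor, was -0.12 ± 0.20 with DMSO and -1.69 ± 0.23 with I-BRD9. In the other direction KLF13 and KLF11, zinc finger factors, fell in 2102 EP. KLF13 rose in TCam-2 and read 30.1, 24.7 and 26.2 CPM there against 5.86, 7.71 and 6.58 CPM in 2102 EP (difference 2.00 ± 0.16, adjusted p = 3.29e-10). KLF11 was at 4.0 ± 0.958 CPM in 2102 EP and 14.4 ± 2.25 CPM in TCam-2. ERRFI1, an inhibitor of EGFR, was 0.06 ± 0.18 with DMSO and 1.69 ± 0.19 with I-BRD9 through a fall in 2102 EP. RBM47, a splicing factor, fell there as well, to 15.0 ± 2.95 CPM, and its response in TCam-2 was not called. PPP1R13L, an inhibitor of p53, rose in TCam-2 from 9.10 ± 1.38 to 21.5 ± 0.637 CPM, and its response in 2102 EP was not called. Its DMSO difference of -0.35 ± 0.17 was called, at -0.46, without replicate 3 of 2102 EP or replicate 1 of TCam-2.

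The reversals included CDX2 and MSX1, both homeobox genes. CDX2, the homeobox factor of trophectoderm and gut, read 0.229, 0.236 and 0.384 CPM in 2102 EP and 1.42, 2.44 and 1.59 CPM in TCam-2 with DMSO. Under I-BRD9 it read 13, 16.8 and 19 CPM in 2102 EP and 0.989, 0.721 and 1.16 CPM in TCam-2. All DMSO libraries of TCam-2 were above those of 2102 EP and all I-BRD9 libraries below, with differences of 2.65 ± 0.45 and -4.06 ± 0.30 (change adjusted p = 3.92e-09). The DMSO difference of CDX2 rests on 7 counts over the 2102 EP group. MSX1, a homeobox target of BMP signals, rose in 2102 EP to 11.3, 8.01 and 12.8 CPM and stood at 0.593, 0.360 and 0.580 CPM in TCam-2, with differences of 1.33 ± 0.46 and -4.34 ± 0.39. The first was not called without replicate 2 of 2102 EP or replicate 1 of TCam-2 with DMSO, at 0.96 and 1.16. CXCL14, a secreted chemokine, fell in TCam-2 from 328, 300.3 and 341 CPM to 13.2, 16.7 and 19.3 CPM and rose in 2102 EP from 25.6 ± 2.02 to 43.2 ± 1.87 CPM. Some of its reads were shared with other genes in 5 libraries. Its difference went from 3.66 ± 0.11 to -1.41 ± 0.12 (change -5.06 ± 0.16). ANKRD1, a YAP target, rose in 2102 EP from 10.1 ± 2.76 to 145 ± 5.98 CPM and passed TCam-2 at 58.2 ± 8.16 CPM. DIO3, the imprinted thyroid hormone deiodinase, fell in TCam-2 from 16.8 ± 3.5 CPM to 3 counts over the group, against 3.68 ± 0.423 CPM in 2102 EP, a ratio of 32.9 (95% counting interval 10.9 to 163). Of the 6 genes that reversed toward TCam-2, TMEM200B, a membrane protein, fell in 2102 EP from 29.1, 34.2 and 33.5 CPM to 5.18, 6.11 and 5.91 CPM, and its response in TCam-2 was not called, so that -1.05 ± 0.14 became 1.70 ± 0.15. SLC22A23, a transporter, went from -1.01 ± 0.22 to 1.11 ± 0.23.

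Below the 2-fold limit more genes changed sides. Over all genes called under both treatments, 7582 of 7759 kept their sign and 177 switched, 108 of them from TCam-2 to 2102 EP and 69 the other way, with the 33 reversals included. CHAC1, a glutathione-degrading enzyme, and SLC7A11, the cystine transporter, were higher in 2102 EP with DMSO, with differences of -2.01 ± 0.15 and -1.27 ± 0.17, and higher in TCam-2 with I-BRD9, with 0.83 ± 0.19 and 0.98 ± 0.20. Both had fallen further in 2102 EP, to 4.92 ± 1.30 and 6.17 ± 0.581 CPM.

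The difference in VIM, the intermediate filament vimentin of mesenchymal cells, grew. With DMSO it read 143, 148 and 152 CPM in 2102 EP and 99.3, 98.0 and 84.4 CPM in TCam-2, and with I-BRD9 421, 376 and 417 and 18.6, 19.5 and 15.2 CPM. The level rose in 2102 EP and fell in TCam-2, and the difference went from -0.65 ± 0.09, below 2-fold, to -4.51 ± 0.10 (change -3.85 ± 0.13, adjusted p = 2.57e-15). SOX3, a SOX factor of neural progenitors, rose in 2102 EP from 6.65 ± 0.567 to 39.1 ± 4.2 CPM and fell in TCam-2 from 1.39 ± 0.245 to 0.249 ± 0.139 CPM. THY1 widened from -3.36 ± 0.11 to -6.12 ± 0.15 through a deeper fall in TCam-2. HAPLN1, a link protein of matrix hyaluronan, widened in favour of TCam-2, where it stood at 156 ± 7.10 CPM, as it fell in 2102 EP to 6 counts over the group. EFEMP1, a fibulin of the matrix, narrowed from 6.93 ± 0.27 to 3.20 ± 0.24, and HAND1, a mesoderm and trophoblast factor that rose in both lines, narrowed from 5.11 ± 0.13 to 2.90 ± 0.10. ALPG, the germ cell alkaline phosphatase, narrowed from -4.0 ± 0.24 to -1.28 ± 0.21.

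CCND1, the G1 cyclin that activates CDK4 and CDK6, read 349.9, 355 and 354 CPM in 2102 EP and 19.5, 19.2 and 17.3 CPM in TCam-2. It rose in the former and fell in the latter, and its difference widened from -2.85 ± 0.08 to -4.24 ± 0.09 (change adjusted p = 8.2e-09). CDKN1A, the CIP/KIP inhibitor p21, rose in 2102 EP, with no called response in TCam-2, to 56.0, 44.8 and 46.6 CPM against 10.5, 11.9 and 12.3 CPM in TCam-2, and its difference grew from -0.89 ± 0.15 to -2.09 ± 0.14. CDK6 was -2.84 ± 0.12 under I-BRD9 and -2.71 ± 0.12 with DMSO. On the list of CDK inhibitors and G1 cyclins 5 of 15 tested genes were higher in TCam-2 and 7 in 2102 EP (33.3% and 46.7%, beside 31.1% each way over all genes), against 7 and 5 with DMSO, and all 6 called changes went toward 2102 EP. Of 26 genes of G1/S and DNA replication, 18 were higher in 2102 EP and 1 in TCam-2, against 18 and 2 with DMSO. Of 26 mitotic genes, 14 were higher in 2102 EP and 6 in TCam-2, against 10 and 5. Of 20 MYC targets, 13 were higher in 2102 EP and 0 in TCam-2, against 9 and 1, with a median of -0.42 against -0.21. For replication, mitotic and MYC genes in turn, the change itself was called toward TCam-2 at 0, 1 and 0. It was called toward 2102 EP at 2, 2 and 1. Of these genes, 21, 22 and 6 fell in 2102 EP and 24, 26 and 16 fell in TCam-2, and 0 rose in either line. Over all genes 18.6% fell in 2102 EP and 16.5% in TCam-2. ODC1, the rate-limiting enzyme of polyamine synthesis, was at 146 ± 29.2 CPM in 2102 EP and 18.0 ± 4.28 CPM in TCam-2.

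**Figure D5:**
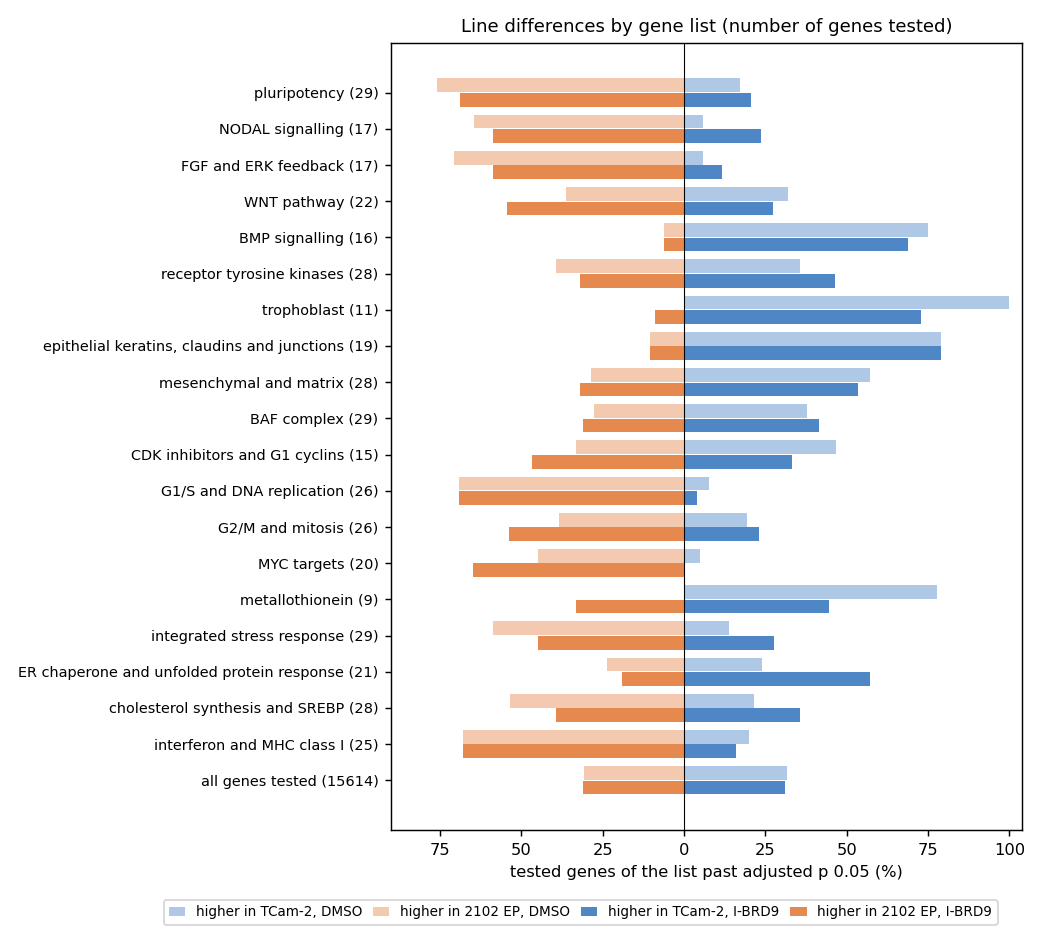
Share of the tested genes of 19 lists and of all genes tested (horizontal, %) that were called higher in TCam-2 (right, blue) or in 2102 EP (left, orange), with DMSO in pale and I-BRD9 in full colour; the number of genes tested is in parentheses. Over all genes the shares are 31.1% on each side under I-BRD9. The unfolded protein response list goes from 5 to 12 of 21 genes called higher in TCam-2, while the change itself was called at 2.

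Metallothioneins bind zinc and copper and are induced by metals. Of 9 tested genes of the metallothionein list, 7 were higher in TCam-2 and 0 in 2102 EP with DMSO, against 4 and 3 with I-BRD9. All 4 called changes went toward 2102 EP. Most of the list fell in both lines: 6 of the 9 genes fell in 2102 EP (66.7%) and 7 in TCam-2 (77.8%), and 0 rose in either. The shares that fell over all genes were 18.6% and 16.5% in that order. The median response was -0.86 in 2102 EP and -1.48 in TCam-2. MT1X was -0.33 ± 0.19 with DMSO and -1.65 ± 0.23 with I-BRD9, at 12.7 ± 3.65 CPM in 2102 EP and 4.04 ± 1.05 CPM in TCam-2, while MT2A was at 1.42 ± 0.09. The DMSO difference of MT1X was called, at -0.46, without replicate 3 of 2102 EP, and, at -0.33, in the fit on the 6 DMSO libraries, and there it would not count as appeared. These genes are near copies of each other, and MT2A shared reads in 11 libraries. Of 21 tested genes of the unfolded protein response, 12 were higher in TCam-2 and 4 in 2102 EP under I-BRD9, against 5 and 5 with DMSO, although the change itself was called at 2 of them, both toward TCam-2. In their own responses 14 fell and 0 rose in 2102 EP (66.7% fell, beside 18.6% over all genes). In TCam-2 8 fell and 1 rose (38.1% fell, beside 16.5%). DNAJB9, a chaperone of the endoplasmic reticulum, was 1.22 ± 0.24 with DMSO and 2.06 ± 0.25 with I-BRD9 (change adjusted p = 0.12). Of 29 genes of the integrated stress response, 8 were higher in TCam-2 and 13 in 2102 EP, against 4 and 17, and the change was called toward TCam-2 at 8 and toward 2102 EP at 2. Of 28 genes of cholesterol synthesis, 10 and 11 were higher in TCam-2 and 2102 EP, against 6 and 15.

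Of 19 tested keratins, claudins and junction genes, 15 were higher in TCam-2 and 2 in 2102 EP under both treatments, and all 7 called changes went toward TCam-2. KRT18, a keratin of simple epithelia, read 1056, 1004 and 882 CPM in 2102 EP and 3308, 3099 and 2932 CPM in TCam-2, and its difference widened from 1.03 ± 0.09 to 1.67 ± 0.09. CLDN4, a tight junction claudin, was 3.51 ± 0.12. Of 11 trophoblast genes, 8 were higher in TCam-2 and 1 in 2102 EP, which was CDX2, against 11 and 0 with DMSO. Of 25 tested antigen presentation and interferon genes, 17 were higher in 2102 EP and 4 in TCam-2, against 17 and 5 with DMSO. B2M, the invariant chain of MHC class I, rose in both lines and read 215, 251 and 267 CPM in 2102 EP and 31.1, 31.6 and 30.0 CPM in TCam-2, a difference of -2.98 ± 0.10 after -3.77 ± 0.12. ISG15, a ubiquitin-like protein of the interferon response, was -5.39 ± 0.28 and -5.38 ± 0.30. On the WNT list 6 of 22 tested genes were higher in TCam-2 and 12 in 2102 EP, against 7 and 8 with DMSO. AXIN2, a feedback inhibitor that WNT signals induce, appeared among the differences, at 13.8, 9.32 and 9.04 CPM in 2102 EP and 4.15, 4.2 and 3.02 CPM in TCam-2 (difference -1.48 ± 0.20, adjusted p = 1.25e-06) after 0.03 ± 0.17 with DMSO. NKD1, an antagonist of the same pathway, was 0.10 ± 0.24 with DMSO and -1.12 ± 0.23 with I-BRD9, a change that was not called without replicate 2 of TCam-2 with DMSO or replicate 1 of TCam-2 with I-BRD9, at -1.02 and -1.06. WLS, which carries WNT ligands to the surface, rose in both lines and narrowed from 4.96 ± 0.15 to 1.92 ± 0.10.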

How the data were processed

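RNA was profiled with a 3′ end kit (Lexogen QuantSeq) after extraction with an RNeasy kit, per the labels' protocols. The authors deposited Salmon estimated counts per gene for all 12 libraries in 1 table. Trim Galore, STAR 2.7.11b, Salmon 1.9.0, R 4.2.0, DESeq2 and GRCh38 are named in the submitters' processing notes, without roles, and use of strand is not given in the sources used here, so overlapping and antisense genes are uncertain. Each estimate was rounded before testing. Genes were kept by filterByExpr over the 4 groups (15614 of 63241), scaled by TMM and tested with edgeR 4.0.16 (R 4.3.3) quasi-likelihood tests in 1 fit of the 12 libraries, with 4 group means and 8 residual degrees of freedom. Adjusted p-values are Benjamini-Hochberg over all genes tested, and values after ± are SDs over 3 libraries for CPM and standard errors for log2 differences. Log2 differences are TCam-2 minus 2102 EP. Groups came from the sample titles. A gene counted as sharing reads in a library where its deposited estimate was not whole (tolerance 0.01). Coordinates are those of GENCODE 29 on GRCh38, and promoters come from RefSeq, matched by symbol. A group at 3 counts or fewer gives a bound (0 counts) or a ratio with a counting interval, which cover counting error only. Totals of 7290335 to 10053366 counts limit what can be seen of genes with few counts.

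Genes were named by rule: the 12 largest differences under I-BRD9 in each direction, the 10 largest changes in each direction among vanished, appeared and reversed differences, the 5 largest among widened and narrowed ones, up to 4 members of each list by difference and up to 4 by change, and all members of 4 lists of germ cell and pluripotency genes, with a mean of at least 10 CPM in the highest group outside those lists. ADA2, CAT, FGFR1, FGFR3, FGFR4, IL17RA, NKD1 and TYRO3 fall outside it and were chosen after their values were seen. The gene lists and the comparison itself were chosen with earlier results of these data known. The alternatives were DESeq2 1.42.0, limma 3.58.1 voom, other scalings, filters, thresholds and blocks, fits on 6 libraries, and each library left out in turn.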

Additional observations from a re-analysis of the deposited data

Results flagged for a closer look

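The lines differed in their response to I-BRD9, by the test of the difference itself (the interaction in edgeR's quasi-likelihood fit), at 921 genes toward TCam-2 and 1122 toward 2102 EP. These totals and the genes below, which the report names, were picked out because that test was called, with 3 libraries per group. The values are log2 changes of the line difference, positive toward TCam-2.

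Among the vanished differences, the changes toward TCam-2 were 2.53 for CRMP1, 2.08 for DNMT3L, 1.07 for DPPA4, 2.86 for HEY2 and 4.22 for TRDN. Among the vanished differences, the changes toward 2102 EP were -6.39 for ANGPTL4, -6.90 for CXCR4, -7.90 for GFRA1, -3.08 for IGFBP3, -3.56 for IGFBP5 and -2.27 for TCL1A. Among the appeared differences, the changes toward TCam-2 were 1.18 for ACVR2B, 1.63 for ERRFI1, 1.46 for FGFR2, 1.81 for KLF11, 1.81 for KLF13, 1.47 for PPP1R13L and 1.47 for RBM47. Among the appeared differences, the changes toward 2102 EP were -1.52 for AXIN2, -3.84 for CRABP1, -1.72 for EGLN3, -2.22 for ETV5, -1.57 for IL6R, -1.32 for MT1X and -1.21 for NKD1. Further changes toward 2102 EP were -1.83 for TNFSF9. Among the reversed differences, the changes toward TCam-2 were 2.12 for SLC22A23 and 2.75 for TMEM200B. Among the reversed differences, the changes toward 2102 EP were -3.25 for ANKRD1, -6.71 for CDX2, -5.06 for CXCL14, -9.40 for DIO3 and -5.67 for MSX1. Among the widened differences, the changes toward TCam-2 were 3.23 for HAPLN1, 0.64 for KRT18 and 1.05 for TYRO3. Among the widened differences, the changes toward 2102 EP were -1.39 for CCND1, -2.22 for ETV4, -0.89 for LIN28A, -2.43 for OTX2, -0.64 for SOX2, -4.91 for SOX3 and -1.18 for SPRY4. Further changes toward 2102 EP were -2.76 for THY1, -1.93 for UTF1 and -2.08 for ZSCAN10. Among the narrowed differences, the changes toward TCam-2 were 2.72 for ALPG, 0.79 for B2M, 1.23 for DNMT3B and 1.63 for USP44. Among the narrowed differences, the changes toward 2102 EP were -3.73 for EFEMP1, -2.21 for HAND1 and -3.04 for WLS. Among the genes in none of these classes, the changes toward TCam-2 were 2.83 for CHAC1, 0.69 for FGFR1, 0.68 for FGFR3, 1.08 for FGFR4, 1.01 for L1TD1, 1.26 for SKIL and 2.26 for SLC7A11. Further changes toward TCam-2 were 1.60 for SMARCA2. Among the genes in none of these classes, the changes toward 2102 EP were -1.19 for CDKN1A, -2.70 for MERTK, -2.17 for NANOG and -3.85 for VIM. The values of DIO3 and GFRA1 come from a group with 3 counts or fewer and depend on the fit.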

How the results depend on the processing

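Counts of called genes kept within 1.5 times of those reported under other scalings, DESeq2, limma voom, no filter on low counts, fits on 6 libraries and blocks. Requiring 2-fold within the test itself (glmTreat) left 3284 genes under I-BRD9. At 4-fold, 1668 differences persisted, 69 widened, 102 narrowed, 90 vanished, 51 appeared and 3 reversed. At an adjusted p of 0.01, 131 widened, 175 narrowed and 18 reversed. With each library left out in turn, 9169 to 9858 genes were called under I-BRD9 and 9170 to 10214 with DMSO, the change was called at 1652 to 2006, and 3719 to 3783 differences persisted, 164 to 196 widened, 233 to 289 narrowed, 210 to 259 vanished, 131 to 177 appeared and 29 to 35 reversed. Same-numbered replicates did not deviate together (correlations from -0.119 to 0.160), so the numbers were not taken to pair the samples. With the replicate block, 9574 genes were called under I-BRD9, the change at 1836, and 3700 differences persisted, 230 vanished, 145 appeared and 32 reversed. No difference of a gene named in the report reversed under any of these settings, and 31 gene results of 5837 passed or lost the threshold. For gene lists, 230 of 4214 counts and medians moved. Depth limits genes with few counts, such as TNFRSF8, CDX2 and MSX1.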
